A study of Homo sapiens with 6 samples.

Results

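The genes described here are the long intergenic non-coding RNAs (LINC genes) that are expressed in 12Z cells, an established human epithelial cell line derived from endometriosis. A gene was taken when its symbol was LINC followed by a 5-digit number and its mean over the 6 libraries was at least 0.5 CPM (counts divided by the library's total over all gene rows, in units of 1e6). LINC01638, the RNA targeted in the study, was left out. Of 2285 LINC identifiers among 62696 gene rows, 1178 had no count in any library and 163 reached that level. The genes were chosen by their mean level over both groups, a limit that a high level in only 1 of the groups can also reach. The 3 genes just above the limit were LINC02966, LINC02934 and LINC00852 at 0.511, 0.515 and 0.517 CPM. Just below it lay a second identifier named LINC01605, LINC02739 and LINC01232 at 0.489, 0.480 and 0.480 CPM.

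RNA was compared between 3 libraries of 12Z cells given LINC01638 siRNA (labelled LINC01638_2, the only siRNA against this RNA in the comparison) and 3 libraries of 12Z cells given a commercial control siRNA, all taken 72 h after lipid transfection. No genetic change is named for either group, and the question asked was the role of LINC01638 in endometriosis. Total RNA was sequenced after removal of ribosomal RNA, with libraries that keep the strand. The labels do not say whether replicates were separate cultures, so each p-value rests on variation among these libraries alone, part or all of which may be technical.

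Long intergenic non-coding RNAs are transcribed from their own promoters, are spliced and mostly polyadenylated like messenger RNAs, and have no known protein product. Some act in the nucleus on genes beside them, some bind proteins or microRNAs elsewhere in the cell, some host small or circular RNAs, and for most no function is known. Many start beside the promoter of a protein-coding gene, and their levels are often more restricted to 1 cell type than those of messenger RNAs.

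The libraries held 45617234 to 58148664 counts in genes. LINC01638 itself was at 2.29, 1.98 and 2.04 CPM with LINC01638 siRNA and at 7.63, 7.64 and 7.80 CPM with control siRNA. All 3 knockdown libraries lay below all 3 controls, with a loss of 72.6% (log2 fold change -1.87, SE 0.11, edgeR adjusted p = 3.73e-11). These and all later levels are CPM after TMM scaling (edgeR's trimmed mean of M-values) unless stated otherwise, and fold changes are LINC01638 siRNA over control siRNA. Among epithelial markers the keratins KRT8 and KRT18 were abundant, at 1673 to 1978 and 955 to 1043 CPM with LINC01638 siRNA and 2485 to 2693 and 1272 to 1387 CPM with control siRNA, while EPCAM was low, at 1.25 to 1.61 CPM against 0.320 to 0.452 CPM. The 7 epithelial markers summed to 3177 to 3706 CPM with LINC01638 siRNA and 5169 to 5615 CPM with control siRNA. Of these 7, KRT7, KRT8, KRT18, KRT19 and CDH1 were lower, EPCAM was higher (log2 fold change 1.86) and CLDN4 did not pass. CDH1 was low too, at 3.4 to 3.8 CPM with LINC01638 siRNA and 7.2 to 8.6 CPM with control siRNA. The 6 mesenchymal markers summed to 1864 to 1978 and 3263 to 3430 CPM. VIM, CDH2, PDGFRB and DCN were lower (log2 fold change -1.24, -0.33, -0.25 and -0.64). FN1 did not pass (0.03, adjusted p = 0.871) and PDGFRA was higher (0.52). The 4 immune markers summed to 0.365 to 0.515 CPM with LINC01638 siRNA and 0.319 to 0.618 CPM with control siRNA, with CD3E at 0. The 4 endothelial markers summed to 10.3 to 12.4 and 12.6 to 15.3 CPM, with KDR lower (-0.62) but VWF and CDH5 higher (0.86 and 0.77), and the 3 mesothelial markers to 126 to 129 and 239 to 242 CPM. Reads outside annotated exons, or in exons but on the opposite strand, made up 13.2% ± 1.67 of mapped reads with LINC01638 siRNA. With control siRNA they made up 9.18% ± 0.864 (SD, n = 3 each). The part of this difference in the changes below was not tested. In bulk RNA, a change in the number of cells expressing a gene and a change in RNA per cell cannot be told apart.

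Of the 163 expressed LINC genes, 34 were higher and 49 lower with LINC01638 siRNA at an adjusted p under 0.05 (edgeR's quasi-likelihood test, Benjamini-Hochberg over 18569 genes), and 80 did not pass. The called share was 50.9%, beside 56.0% of all genes tested. By direction, 20.9% of the LINC genes were higher and 30.1% lower, beside 26.3% and 29.6% of all genes, and the median log2 fold change was -0.06, beside -0.00 over all genes. Scaled by library totals alone, 39 LINC genes were higher and 44 lower, and the balance over all genes turned, with 6349 higher and 4288 lower beside 4887 higher and 5503 lower with TMM. In the counts made without regard to strand 27 LINC genes were higher and 49 lower. At least 2-fold changes among the calls were made by 25 LINC genes, 9 higher and 16 lower, which is 15.3% of them, beside 9.60% of all genes and 14.4% of the other long non-coding genes. Of the 144 LINC genes at or above 0.5 CPM (by library total) in both groups, 4 were higher and 14 lower by at least 2-fold (12.5%). The remaining 5 rises of this size were under 0.5 CPM with control siRNA and entered through their level with LINC01638 siRNA. The remaining falls of this size were under 0.5 CPM with LINC01638 siRNA and entered through their level with control siRNA. The groups did not overlap for 92 LINC genes (56.4%), beside 61.5% of all genes. All 163 passed the filter on low counts, so no LINC gene is missing from these counts. The smallest count of any of them in a library was 7.

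**Figure D1:**
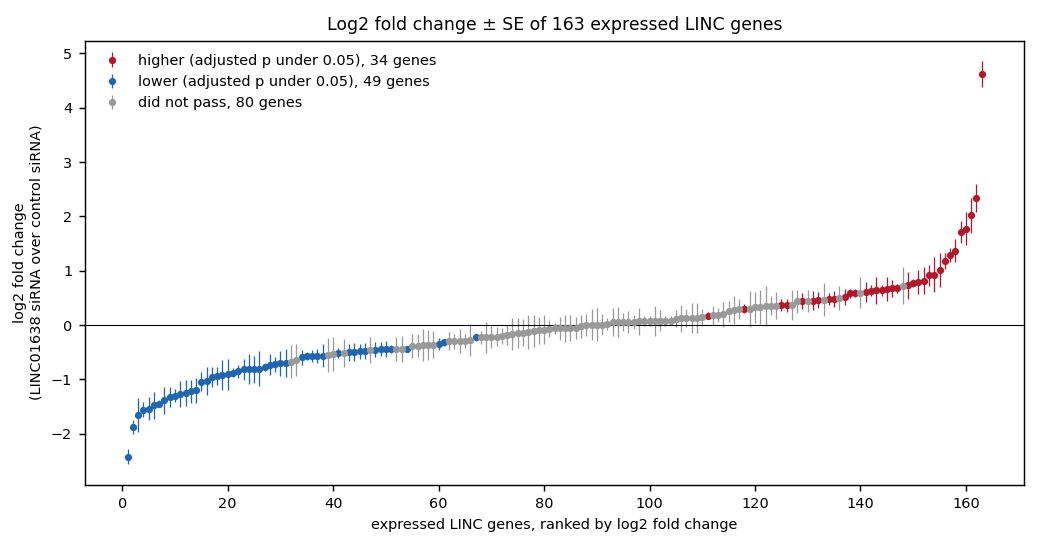
Log2 fold change (LINC01638 siRNA over control siRNA) of the 163 expressed LINC genes on the y axis, ranked along the x axis, with bars of 1 SE; red marks 34 genes called higher, blue 49 called lower and grey 80 that did not pass. LINC01554 stands alone at the upper end at 4.62, and LINC00707 is lowest at -2.43.

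The LINC genes differed widely in their counts. All levels in this paragraph are CPM by library total, without TMM scaling. Together the 163 genes held 632, 614 and 604 CPM (by library total) with LINC01638 siRNA and 652, 649 and 654 CPM with control siRNA, a small part of all RNA counted. Only 16 averaged 10 CPM or more, of which 7 were higher and 9 lower with LINC01638 siRNA. Another 89 lay between 1 and 10 CPM (19 higher, 29 lower) and 58 under 1 CPM (8 higher, 11 lower). Over all genes tested, 26.3% were higher and 29.6% lower. On average 10 LINC genes were under 0.5 CPM with LINC01638 siRNA and 9 with control siRNA. Of the 144 at or above that level in both groups, 28 were higher and 44 lower. The 131 tested LINC genes below the limit had 24 higher and 12 lower, with a median of 0.16. The other 2428 tested long non-coding genes, which have no such symbol, had 505 higher and 325 lower (34.2% called) with a median of 0.14, and the 13584 protein-coding genes 3884 higher and 4927 lower (64.9% called) with a median of -0.04. Median levels, which are not corrected for gene length, were 1.42 CPM for the expressed LINC genes, 0.581 CPM for the other long non-coding genes and 28.4 CPM for protein-coding genes.

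The 10 largest rises and 10 largest falls described next were taken from calls whose groups do not overlap, so their separation was set by that choice. Among the rises, LINC01554, LINC01293, LINC00243, LINC02641, LINC00327 and LINC02742 averaged under 0.5 CPM (by library total) with control siRNA. They entered through their level with LINC01638 siRNA. Among the falls, LINC02989 and LINC03061 were under that level with LINC01638 siRNA and entered through their level with control siRNA. The largest rise was that of LINC01554, an RNA studied in hepatocellular carcinoma (ENSG00000236882.9, GRCh38 chr5:95852232-95860133, plus strand, in positions of GENCODE 29 as for all genes below). It was at 7.03, 4.21 and 6.10 CPM with LINC01638 siRNA and at 0.263, 0.252 and 0.188 CPM with control siRNA. The RNA was low in every control library and many-fold higher in every knockdown library (24.6-fold, log2 fold change 4.62, SE 0.24, adjusted p = 2.87e-11). ELL2, an elongation factor of RNA polymerase II whose gene lies 24965 bases away, averaged 85.9 ± 3.10 CPM with LINC01638 siRNA and 94.1 ± 4.45 CPM with control siRNA (SD, n = 3 each; log2 fold change -0.13, adjusted p = 0.0306). ELL2 was thus slightly lower, while GLRX, the protein-coding gene whose start lies nearest to that of LINC01554, was called higher at 0.27. Of the reads over LINC01554, 0.716% lay on the other strand with LINC01638 siRNA and 31.4% with control siRNA, where the gene had few reads of its own.

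LINC01291 and LINC01293 lie on the plus strand of chromosome 2, 1840 bases apart, and both rose. LINC01293 was at 1.70, 1.21 and 1.65 CPM with LINC01638 siRNA and at 0.263, 0.320 and 0.320 CPM with control siRNA. LINC01291 was at 2.80, 1.92 and 2.26 CPM against 0.619, 0.892 and 1.19 CPM. All knockdown libraries were above all controls for both genes, and the log2 fold changes were 2.33 (SE 0.26, adjusted p = 1.80e-07) and 1.37 (SE 0.22, adjusted p = 2.26e-05). On the other strand of LINC01291 lay 44.3% of its reads with LINC01638 siRNA and 78.3% with control siRNA, and in the counts made without regard to strand its log2 fold change was -0.03 (adjusted p = 0.835). The nearest protein-coding gene to both, POLE4, a small subunit of DNA polymerase epsilon, averaged 53.0 ± 1.52 CPM with LINC01638 siRNA and 47.1 ± 3.47 CPM with control siRNA (SD, n = 3 each; log2 fold change 0.17, adjusted p = 0.0172).

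Several other rises were of genes at low levels. LINC00243, on chromosome 6 near the collagen receptor gene DDR1, was at 0.751, 0.827 and 1.03 CPM with LINC01638 siRNA and at 0.188, 0.160 and 0.283 CPM with control siRNA (log2 fold change 2.02, SE 0.32, adjusted p = 2.12e-05). DDR1 was higher too, by 0.40 on the log2 scale (adjusted p = 2.84e-06), at 194 ± 3.37 CPM with LINC01638 siRNA and 147 ± 11.6 CPM with control siRNA (SD, n = 3 each). LINC02641 was at 1.94, 1.19 and 0.947 CPM with LINC01638 siRNA and at 0.281, 0.481 and 0.433 CPM with control siRNA, highest in replicate A of the knockdown (log2 fold change 1.78, SE 0.30, adjusted p = 4.88e-05). GPR26, its nearest protein-coding gene, had no count. LINC00888, whose identifier in these data has no position in GENCODE 29, was at 2.18, 2.15 and 2.44 CPM against 0.844, 0.526 and 0.678 CPM (log2 fold change 1.71, SE 0.20, adjusted p = 3.93e-07). LINC00327 had 0.897, 0.923 and 0.515 CPM with LINC01638 siRNA and 0.319, 0.458 and 0.377 CPM with control siRNA, the highest control just under the lowest knockdown library (log2 fold change 1.02, SE 0.31, adjusted p = 0.00888). For LINC02742 the values were 0.696, 0.827 and 0.598 CPM with LINC01638 siRNA and 0.394, 0.206 and 0.490 CPM with control siRNA. Its log2 fold change of 0.93 (SE 0.32, adjusted p = 0.0185) no longer passed without LINC01638 siRNA replicate B (0.80, adjusted p = 0.0767) or without control siRNA replicate B (0.67, adjusted p = 0.0937). METTL15, the mitochondrial methyltransferase gene nearest to it, did not pass at -0.16 (adjusted p = 0.0924).

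LINC02976 and LINC00997 rose too and had more reads. LINC02976 (GRCh38 chr6:42940364-42948360, plus strand) had 7.65, 6.69 and 6.57 CPM with LINC01638 siRNA and 2.76, 3.34 and 2.51 CPM with control siRNA. All knockdown libraries were well above all controls (log2 fold change 1.29, SE 0.12, adjusted p = 2.09e-08). CNPY3, which encodes a chaperone of Toll-like receptors, lies 1077 bases away and rose by 0.44 on the log2 scale (adjusted p = 1.20e-06). LINC00997 (GRCh38 chr7:32760279-32762924, plus strand), a gene of 1 exon, had 4.39, 3.48 and 4.60 CPM against 1.69, 1.99 and 1.87 CPM (log2 fold change 1.18, SE 0.14, adjusted p = 8.18e-07). KBTBD2, an adaptor of a ubiquitin ligase 105248 bases from it, fell by 0.21 on the log2 scale (adjusted p = 0.00206).

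**Figure D2:**
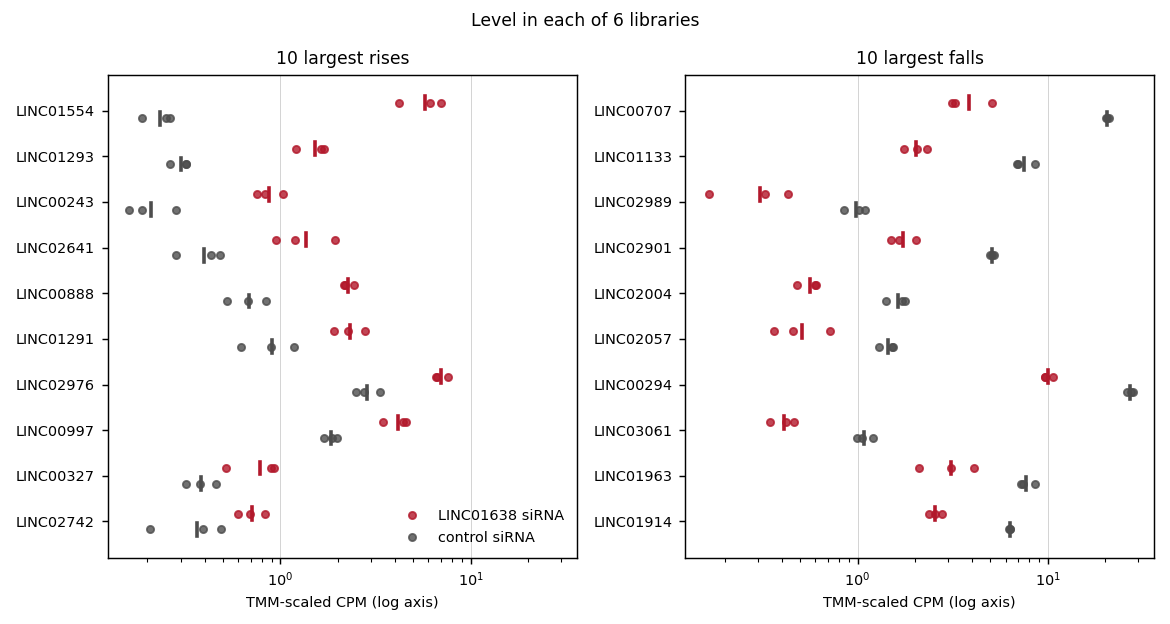
TMM-scaled CPM (log axis) of the 10 LINC genes with the largest rise (left) and the 10 with the largest fall (right) among calls without overlap; each point is a library, red for LINC01638 siRNA and grey for control siRNA, and each bar a group mean. Only genes whose groups do not overlap were taken, and the gap is widest for LINC01554 and LINC00707.

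LINC00707 fell most. This RNA of chromosome 10 (ENSG00000238266.3, GRCh38 chr10:6779549-6879450, plus strand) has been studied as a driver of proliferation in several carcinomas. It had 3.15, 5.12 and 3.24 CPM with LINC01638 siRNA and 21.0, 20.4 and 20.1 CPM with control siRNA. All 3 knockdown libraries lay far below the controls, with a wider spread than among the controls (5.38-fold lower, log2 fold change -2.43, SE 0.14, adjusted p = 5.70e-09). PRKCQ, a protein kinase C gene 199248 bases away, was hardly expressed, at 0.291 ± 0.0568 CPM with LINC01638 siRNA and 0.306 ± 0.0284 CPM with control siRNA (SD, n = 3 each), and did not pass (log2 fold change -0.08, adjusted p = 0.865).

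LINC01133 (ENSG00000224259.9, GRCh38 chr1:159961218-159984750, plus strand) binds the splicing factor SRSF6 in colorectal cancer cells, where it restrains epithelial-mesenchymal transition. It stood at 2.31, 2.06 and 1.75 CPM with LINC01638 siRNA and at 8.55, 6.91 and 6.97 CPM with control siRNA. Every knockdown library was below every control (3.68-fold lower, log2 fold change -1.88, SE 0.13, adjusted p = 3.07e-10). SLAMF9, its nearest protein-coding gene, had too few counts to test.

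LINC00294 (ENSG00000280798.1, GRCh38 chr11:33076149-33079454, plus strand) is a gene of 1 exon inside TCP11L1 on the same strand. It held 9.63, 10.7 and 9.67 CPM with LINC01638 siRNA and 27.3, 28.1 and 26.3 CPM with control siRNA. Both groups were tight and far apart (2.73-fold lower, log2 fold change -1.45, SE 0.07, adjusted p = 2.96e-12). TCP11L1 averaged 18.6 ± 0.581 CPM with LINC01638 siRNA and 40.2 ± 0.244 CPM with control siRNA (SD, n = 3 each; log2 fold change -1.11, adjusted p = 7.79e-12). Reads from unspliced TCP11L1 RNA and from LINC00294 fall on the same strand and cannot be told apart in these counts.

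Falls of both the LINC gene and its neighbour were also seen beside EZR, MICAL2, XRCC5 and PKDCC. LINC02901 had 2.03, 1.5 and 1.65 CPM with LINC01638 siRNA and 4.95, 5.19 and 5.11 CPM with control siRNA (log2 fold change -1.56, SE 0.13, adjusted p = 7.14e-09). EZR, which encodes ezrin, a linker of membrane and actin cytoskeleton, lies 50527 bases away and was at 425 ± 43.8 CPM with LINC01638 siRNA and 1337 ± 37.5 CPM with control siRNA (SD, n = 3 each; log2 fold change -1.65, adjusted p = 2.68e-13). LINC02989 had 0.165, 0.327 and 0.432 CPM against 1.01, 0.847 and 1.09 CPM (log2 fold change -1.66, SE 0.31, adjusted p = 0.000146), low values throughout. MICAL2, an actin-oxidising enzyme gene 4567 bases from LINC02989, fell by 0.76 on the log2 scale (adjusted p = 6.98e-09). LINC01963 had 3.09, 4.10 and 2.11 CPM with LINC01638 siRNA and 7.22, 8.56 and 7.39 CPM with control siRNA, a fall in all knockdown libraries that differed among them (log2 fold change -1.32, SE 0.18, adjusted p = 4.79e-05). XRCC5, the Ku80 subunit gene of DNA end joining, fell by 0.83 on the log2 scale (adjusted p = 5.23e-10). For LINC01914 the values were 2.36, 2.77 and 2.56 CPM with LINC01638 siRNA and 6.34, 6.22 and 6.33 CPM with control siRNA, both groups tight (log2 fold change -1.30, SE 0.11, adjusted p = 6.57e-09). PKDCC, a secreted tyrosine kinase gene 114297 bases away, fell by 1.04 on the log2 scale (adjusted p = 2.61e-12).

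The remaining large falls had other neighbours. LINC02004, a short RNA near the angiomotin-like gene AMOTL2, had 0.604, 0.481 and 0.598 CPM with LINC01638 siRNA and 1.71, 1.42 and 1.77 CPM with control siRNA (log2 fold change -1.54, SE 0.21, adjusted p = 4.23e-06). AMOTL2 did not pass, at 0.05 on the log2 scale (adjusted p = 0.407). LINC02057 had 0.458, 0.365 and 0.715 CPM against 1.29, 1.51 and 1.55 CPM, a fall of 1.48 on the log2 scale (adjusted p = 3.88e-05), while SMIM15, its nearest protein-coding gene, rose by 0.36 (adjusted p = 2.11e-05). LINC03061 had 0.421, 0.346 and 0.465 CPM with LINC01638 siRNA and 1.05, 1.21 and 0.999 CPM with control siRNA (log2 fold change -1.39, SE 0.26, adjusted p = 0.000113). Of the reads over LINC03061, 43.4% with LINC01638 siRNA and 30.8% with control siRNA lay on the other strand, and its nearest protein-coding gene, MYO16, had too few counts to test.

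The 5 LINC genes with the highest level per kilobase of annotated exon were LINC01615 at 12.1 CPM per kb, LINC00839 at 10.2, LINC01004 at 7.04, LINC00294 at 5.63 and LINC01224 at 5.41 CPM per kb. All but LINC01004 were lower with LINC01638 siRNA. LINC01615 had 10.4, 10.9 and 11.0 CPM with LINC01638 siRNA and 15.6, 13.8 and 14.6 CPM with control siRNA (log2 fold change -0.44, adjusted p = 5.96e-05). Its nearest protein-coding gene THBS2, which encodes the matrix protein thrombospondin-2, fell by 0.27 on the log2 scale (adjusted p = 0.00883). LINC00839 had 19.4, 16.2 and 16.9 CPM against 31.6, 28.1 and 30.2 CPM (log2 fold change -0.78, adjusted p = 2.26e-08), and the zinc finger gene ZNF33B near it rose by 0.47 (adjusted p = 1.48e-05). LINC01224 had 11.6, 11.8 and 14.2 CPM with LINC01638 siRNA and 22.6, 23.3 and 23.4 CPM with control siRNA (log2 fold change -0.88, adjusted p = 9.92e-09), beside a log2 fold change of -0.07 (adjusted p = 0.281) for the neighbouring ZNF91. None of these overlapped between the groups. LINC01004, which starts head to head with the chromatin regulator gene KMT2E, had 9.90, 8.40 and 9.46 CPM with LINC01638 siRNA and 5.66, 6.54 and 7.78 CPM with control siRNA. The gap between its groups was narrow (log2 fold change 0.47, SE 0.11, adjusted p = 0.000997), and KMT2E rose by 0.29 (adjusted p = 4.45e-05).

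A list of 25 LINC genes studied in tumour cells held 16 of the expressed ones, of which 2 were higher, 5 lower and 9 did not pass, beside the 56.0% of all genes that were called, with a median log2 fold change of -0.05. The symbols of 2 of the 25 matched none in the tables used here and were not analysed. Besides LINC00707 and LINC01133, the lower ones were LINC00963, LINC00511 and LINC01116. LINC00963, which is known from the progression of prostate cancer, had the most counts of the expressed LINC genes, with 54.3, 58.7 and 53.8 CPM with LINC01638 siRNA and 77.5, 75.4 and 72.8 CPM with control siRNA. Its fall was small and clear of the spread (log2 fold change -0.44, SE 0.05, adjusted p = 5.44e-07). LINC00511, often raised in breast and lung tumours, had 2.89, 3.21 and 2.54 CPM against 3.79, 5.19 and 5.28 CPM (log2 fold change -0.72, adjusted p = 0.000207). LINC01116 had 1.78, 2.29 and 2.26 CPM with LINC01638 siRNA and 2.89, 2.79 and 2.94 CPM with control siRNA. Its log2 fold change of -0.45 (adjusted p = 0.0125) no longer passed without LINC01638 siRNA replicate A (-0.34, adjusted p = 0.0729). The higher ones were LINC01004 and LINC00665, the last by 0.17 (adjusted p = 0.0234). NTMT1, SLC39A11 and MTX2, the nearest protein-coding genes of LINC00963, LINC00511 and LINC01116, had log2 fold changes of -0.52, -0.45 and -0.01 (adjusted p = 6.50e-08, 1.41e-05 and 0.942).

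Some expressed LINC genes are known mainly for the RNAs they give rise to. These genes, those described beside JUN, FOS, ANXA8L1 and KLF6, and the examples given by place and structure were chosen after their values were seen. LINC00472, on the minus strand of chromosome 6, overlaps the genes of MIR30A and MIR30C2 on its strand, and is shown with the mature 5p sequences from RefSeq (GRCh38.p14), the seed of bases 2 to 8 in capitals, because both share it:
hsa-miR-30a-5p: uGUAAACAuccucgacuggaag
hsa-miR-30c-5p: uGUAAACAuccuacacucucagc
LINC00472 had 19.1, 17.6 and 17.1 CPM with LINC01638 siRNA and 10.0, 11.8 and 12.0 CPM with control siRNA. It rose in all 3 knockdown libraries (log2 fold change 0.67, SE 0.08, adjusted p = 6.89e-07), while OGFRL1, 35394 bases away, fell by 1.14 on the log2 scale (adjusted p = 2.67e-09). Mature microRNAs are too short for these libraries and were not measured. LINC00632, the precursor from which the circular RNA CDR1as is made, had 17.6, 18.5 and 17.4 CPM with LINC01638 siRNA and 12.0, 11.8 and 11.7 CPM with control siRNA, with no overlap (log2 fold change 0.59, SE 0.07, adjusted p = 5.95e-07). Counts per gene do not separate linear from circular forms.

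LINC genes beside JUN and FOS, which encode subunits of the transcription factor AP-1, were lower together with them. LINC01135, which starts 801 bases from JUN in the opposite direction, had 2.43, 1.87 and 2.33 CPM with LINC01638 siRNA and 2.96, 3.50 and 3.58 CPM with control siRNA (log2 fold change -0.59, adjusted p = 0.00157). JUN was at 264 ± 5.70 CPM with LINC01638 siRNA and 696 ± 21.5 CPM with control siRNA (SD, n = 3 each; log2 fold change -1.40, adjusted p = 8.67e-14). Downstream on the same strand, 32538 bases from LINC01135, LINC01358 had 0.915, 1.13 and 0.499 CPM with LINC01638 siRNA and 2.06, 2.38 and 1.66 CPM with control siRNA, also without overlap (log2 fold change -1.27, adjusted p = 0.000187). LINC01220, 12174 bases from FOS, had 0.568, 0.750 and 1.06 CPM against 1.71, 1.85 and 2.04 CPM (log2 fold change -1.22, adjusted p = 7.74e-05), and FOS fell by 0.56 on the log2 scale (adjusted p = 6.32e-08). LINC00842 fell by 1.03 on the log2 scale (adjusted p = 0.00189) near the annexin gene ANXA8L1, which fell by 1.71 (adjusted p = 4.98e-12). In contrast, LINC00702 had 1.41, 1.44 and 1.51 CPM with LINC01638 siRNA and 0.581, 1.30 and 0.641 CPM with control siRNA (log2 fold change 0.82, adjusted p = 0.00956), while its nearest protein-coding gene, the zinc finger factor KLF6, 415860 bases away, fell by 1.29 (adjusted p = 4.48e-13). Of the reads over LINC00702, 60.7% and 71.8% lay on the other strand.

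A nearest protein-coding gene that was itself tested was found for 133 of the 160 LINC genes with an annotated place. Both were called in 51 of these pairs, in the same direction in 33 (10 both higher, 23 both lower) and in opposite directions in 18, of which 11 had the LINC gene higher and 7 the LINC gene lower. The share in the same direction was 64.7%. Among 523 such pairs of other long non-coding genes it was 64.8%, and among 4475 pairs of protein-coding genes with their nearest protein-coding gene 56.7%. These sets differ in distance, with a median gap over all tested pairs of 11880, 0 and 1118 bases. Protein-coding genes that are nearest to each other were counted from each side. Across the 133 pairs the log2 fold changes had Pearson's r = 0.21 and Spearman's rho = 0.21, as a description over genes, some of which share a neighbour; across the protein-coding pairs r was 0.096. Within 50 kb, 25 of 39 pairs with both called had the same direction, and beyond 50 kb 8 of 12. No difference between these shares was tested.

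**Figure D3:**
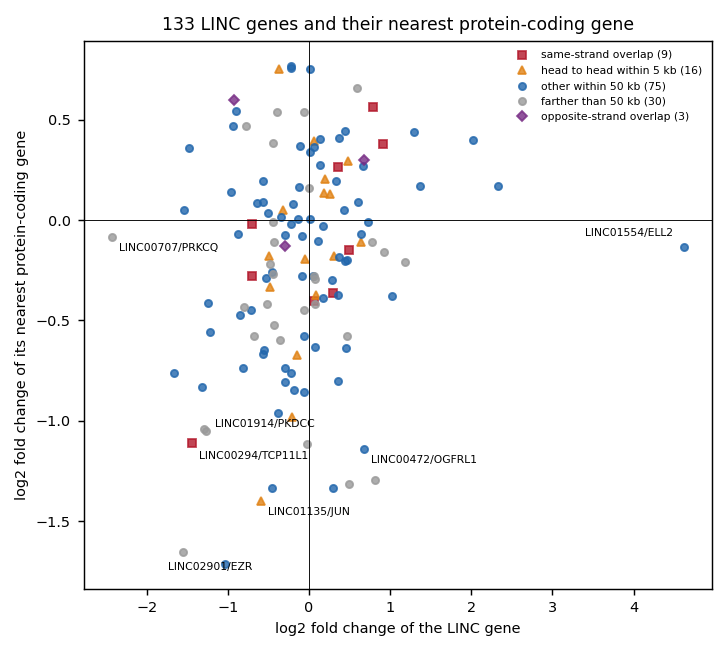
Log2 fold change (LINC01638 siRNA over control siRNA) of 133 LINC genes on the x axis and of the nearest protein-coding gene of each on the y axis, with colour and shape for their relative place. The points spread to all sides of 0, with LINC02901 and EZR, and LINC00294 and TCP11L1, at the lower left where both are lower, and LINC01554 far to the right beside an ELL2 value near 0.

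The changes were also read by place. On the strand of a protein-coding gene and overlapping it lay 12 LINC genes, 4 higher and 4 lower, with a median log2 fold change of 0.33. Among them LINC00921 rose by 0.91 (adjusted p = 0.00031) together with the zinc finger gene ZNF263 (0.38), and LINC01089, studied in breast cancer as a restraint on metastasis, rose by 0.49 (adjusted p = 0.00861) beside RHOF at -0.15, which did not pass. In the 9 such pairs with a tested partner r was 0.79, and 4 of 5 called pairs moved in the same direction, the exception being LINC01278 (0.30) and SPIN4 (-0.36). Across the 124 pairs without same-strand overlap r was 0.18. Where both genes overlap on the same strand, intron reads of the partner can count for the LINC gene. The part of such reads in the r of 0.79 was not tested. The other 484 long non-coding genes with same-strand overlap had 144 higher and 28 lower with a median of 0.43. The 6 LINC genes overlapping a protein-coding gene on the other strand had 1 higher and 3 lower, with a median of -0.59. Of 16 head to head within 5 kb of a protein-coding start, 2 were higher and 4 lower (median 0.00), and all 4 pairs with both called moved together, LINC01135 with JUN, LINC01521 with PATZ1, LINC01547 with SLX9 and LINC01004 with KMT2E. The 88 other genes within 50 kb had 17 higher and 24 lower (median -0.10), and the 38 farther away 8 higher and 14 lower (median -0.06). The shares called were 66.7% for each kind of overlap, 37.5% head to head, 46.6% within 50 kb and 57.9% farther. Of all genes tested, 56.0% were called. Scaling by library totals alone, which moved the median of all genes to 0.10 on the log2 scale, moved the medians of all LINC genes and of the 38 farthest to 0.04.

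**Figure D4:**
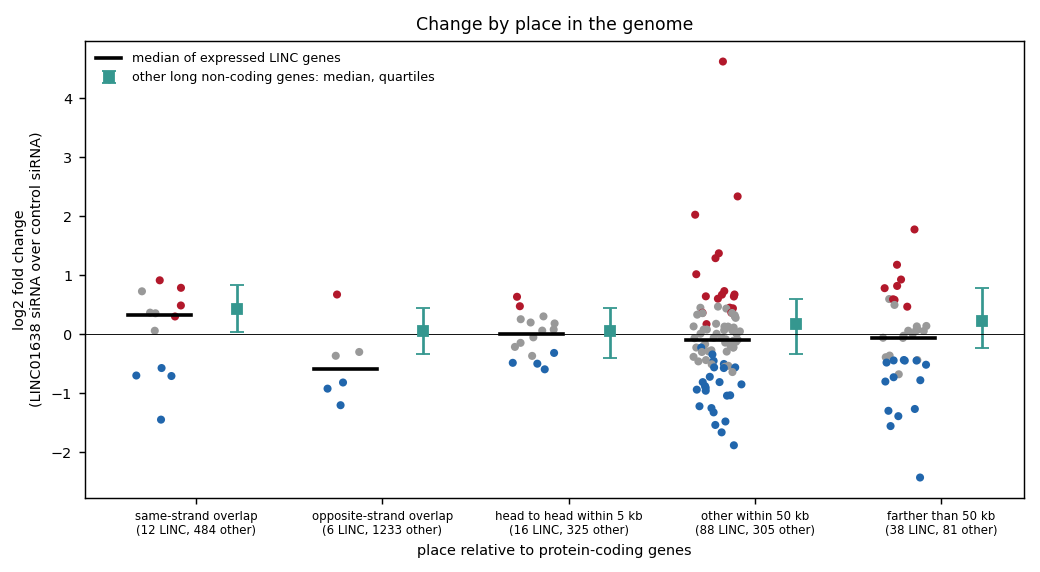
Log2 fold change (LINC01638 siRNA over control siRNA) of 160 expressed LINC genes by place, as points to the left (red higher, blue lower, grey not passed) with a black line at the median, and to the right the median and quartiles of other long non-coding genes as a green square with bars. For same-strand overlap both medians lie above 0, at 0.33 and 0.43, and points of the LINC genes lie on both sides of 0 in every class.

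Structure was read from the annotation as well. The 24 LINC genes of 1 exon had 5 higher and 5 lower (median 0.15), and the 136 with several exons 27 higher and 44 lower (median -0.12). The shares called were 41.7% and 52.2%, beside 56.0% of all genes tested. Among 11 pairs of expressed LINC genes within 50 kb of each other both were called in 2, and both moved the same way, LINC01135 with LINC01358 and LINC01291 with LINC01293. LINC01128 had 16.2, 16.9 and 16.7 CPM with LINC01638 siRNA and 9.34, 9.68 and 9.99 CPM with control siRNA (log2 fold change 0.78, adjusted p = 2.37e-08). LINC00115, inside it on the other strand, was at -0.44 and did not pass (adjusted p = 0.13). LINC02693, a LINC gene by its symbol, is the protein-coding gene C17orf51 in GENCODE 29 and was at 39.3 ± 1.05 CPM with LINC01638 siRNA and 46.1 ± 4.05 CPM with control siRNA (SD, n = 3 each; log2 fold change -0.23, adjusted p = 0.0039). Reads on the other strand made up a median of 2.60% with LINC01638 siRNA and 2.98% with control siRNA, but over 50% for 13 and 12 LINC genes, up to 99.4% in both groups for LINC01013, whose own counts did not pass (adjusted p = 0.241).

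Promoter sequence of RefSeq (GRCh38.p14, 250 bases before to 50 after an annotated start) was at hand for 124 of the LINC genes. The AP-1 motif TGANTCA, which reads the same on both strands, stood in 11 of these promoters (8.87%), beside 9.37% of 27305 genes. It was in 1 of 22 called higher, 5 of 39 called lower and 5 of 63 that did not pass. A match in this window is no evidence of binding. Most named LINC genes with promoter sequence at hand were called lower, so a match in 3 lower genes says little about the motif. LINC02901 has another start whose window held no match. LINC02901, LINC01615 and LINC00963 are shown because they are the named LINC genes with a match, all 3 of them lower, with the motif in capitals and, for LINC01615, the start with more matches:
LINC02901, chr6:158869779-158870078, plus strand: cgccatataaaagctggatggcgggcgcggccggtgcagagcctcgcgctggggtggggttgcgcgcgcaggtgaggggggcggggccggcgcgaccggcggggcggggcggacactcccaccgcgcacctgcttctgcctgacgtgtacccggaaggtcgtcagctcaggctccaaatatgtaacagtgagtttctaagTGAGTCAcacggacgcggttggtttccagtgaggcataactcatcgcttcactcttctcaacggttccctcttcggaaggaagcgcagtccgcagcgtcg
LINC01615, chr6:169162940-169163239, minus strand: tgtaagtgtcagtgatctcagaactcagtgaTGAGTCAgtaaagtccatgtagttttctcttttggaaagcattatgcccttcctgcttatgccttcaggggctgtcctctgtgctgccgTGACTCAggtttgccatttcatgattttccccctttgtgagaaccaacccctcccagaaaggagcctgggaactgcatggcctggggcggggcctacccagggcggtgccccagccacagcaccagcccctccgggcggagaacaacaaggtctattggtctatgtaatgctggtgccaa
LINC00963, chr9:129488410-129488709, plus strand: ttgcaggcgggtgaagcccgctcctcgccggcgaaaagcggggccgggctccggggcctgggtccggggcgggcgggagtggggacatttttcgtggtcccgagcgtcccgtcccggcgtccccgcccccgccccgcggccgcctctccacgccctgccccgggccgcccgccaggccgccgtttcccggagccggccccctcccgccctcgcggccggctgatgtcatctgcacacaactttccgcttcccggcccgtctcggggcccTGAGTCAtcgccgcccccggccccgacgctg

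The 7-base word GAATACA, picked earlier from 3′ ends of messenger RNAs in these same data and so no independent evidence, was looked for on the sense strand of all annotated LINC transcripts. It was in 35 of the 160 annotated LINC genes, of which 7 were higher and 14 lower (40% lower, median log2 fold change -0.11). Of the 125 without it, 25 were higher and 35 lower (28% lower, median -0.07). Over all genes tested, 26.3% were higher and 29.6% lower. Of the other 2428 long non-coding genes, 290 hold it, of which 56 were higher and 49 lower (16.9% lower), and of the 2138 without it 449 were higher and 276 lower (12.9% lower). LINC genes with the word were longer, with a median exon length of 4947 bases against 2310, and the part of length in this difference was not tested. Of the 10 largest falls named above 3 hold it and 7 do not, and of the 9 largest rises with an annotated transcript 1 holds it. These 4 sites and that of LINC01638 are shown with 10 bases on each side and the word in capitals (GENCODE 29 transcripts, GRCh38):
LINC00707, lower: atcattttttGAATACAcattcactgc
LINC01133, lower: acaaaccaaaGAATACActtgtattct
LINC03061, lower: ctttacatctGAATACAaatgcagcac
LINC01291, higher: gaattcaagaGAATACAtggttggaag
LINC01638, the targeted RNA: attccctctgGAATACAtcagcactgt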

How the data were processed

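Counts per gene in 6 libraries were analysed as deposited by the authors: whole-number counts in 3 columns (without strand and on each strand), unnormalized. Per the submitters' processing notes, STAR 2.7.10b, R 4.2.1 and GRCh38 (hg38) were used; which gene annotation was used, and how reads were trimmed, is not given in the sources used here. Per the labels' protocols the kit is directional, and the reverse-strand counts were used. Left out were 4 rows without a gene: unmapped reads (13.0% with LINC01638 siRNA, 12.3% with control siRNA), reads not in an exon on the counted strand, reads assigned to more than 1 gene (7.17% with LINC01638 siRNA, 7.49% with control siRNA) and multimapping reads (given as 0 in every library). That 0 does not show that no read mapped to several places. Because reads assigned to more than 1 gene were left out, LINC genes lose reads where exons of another gene on their strand overlap theirs. Intron reads of a gene on the same strand can instead count for a LINC gene inside it.

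Symbols were matched for 61918 identifiers exactly and 754 without version; GENCODE 29, which holds 58225 identifiers and may differ from the authors' release, gave positions. The LINC genes and lists were chosen with earlier results of these data known. The filter was filterByExpr of edgeR (at least 10 counts, 15 in total), the scaling TMM and the test the quasi-likelihood F test (robust dispersions, group only; threshold 0.05 after Benjamini-Hochberg). SE is the absolute log2 fold change over the square root of F. Named genes were the 10 largest rises and 10 largest falls among calls without overlap, the 5 highest per kb, up to 6 of the tumour list by lowest p, nearest protein-coding genes and genes by the limit; others are said to be chosen later. The nearest protein-coding gene of 1 named LINC gene is not reported here. Alternatives were DESeq2 size factors, library totals, limma-voom, the Wald test of DESeq2, no filter, 1 CPM in 3 libraries, replicate block, counts without strand, other limits and each library left out. Tools were Python 3.11.15 and R 4.3.3 with DESeq2 1.42.0, edgeR 4.0.16 and limma 3.58.1. Each test was first checked on simulated data in which only a small part of the genes changed. That check does not cover data like these, in which 56.0% of all genes tested were called.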

Additional observations from a re-analysis of the deposited data

How the results depend on the processing

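Library totals alone gave a median log2 fold change of 0.040 for the expressed LINC genes, and 0.041 for those farther than 50 kb, 0.11 head to head, -0.49 for opposite-strand overlap, -0.00011 for other genes within 50 kb and 0.43 for same-strand overlap; the median of all genes moved to 0.10. With the stricter filter, under which 111 LINC genes were tested, these were -0.024 for all, -0.19 farther, -0.52 opposite-strand, -0.16 within 50 kb and 0.22 same-strand. Counts without regard to strand gave -0.11 for all, -0.21 farther, -0.53 opposite-strand and -0.14 within 50 kb, and turned LINC01291 to -0.034 (adjusted p = 0.835). Without same-strand overlaps the median was -0.086. Requiring a 1.5-fold change left 23 higher and 32 lower, and a 2-fold change 9 higher and 16 lower. Leaving out 1 library in turn gave 29 to 32 higher and 43 to 50 lower, 29 to 33 pairs called in the same direction and 11 to 17 in opposite directions (11 without control siRNA replicate C), and medians of -0.16 to -0.054 for all, -0.19 to -0.063 farther, -0.030 to 0.069 head to head, -0.65 to -0.48 opposite-strand, -0.18 to -0.057 within 50 kb and 0.15 to 0.38 same-strand. The cause of these differences was not tested. Of the values of named genes under the alternatives, 368 kept direction and side of the threshold, 1 turned and 3 no longer passed, as given for LINC02742 and LINC01116. The stricter filter did not test LINC00243, LINC02641, LINC00327, LINC02742, LINC02989 and LINC03061, so these values are not in that tally. LINC genes chosen after their values were seen are not in it either.

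Same-letter libraries did not visibly deviate together, with r = -0.12, -0.05 and -0.01 for A, B and C. Whether a letter stands for a shared culture or day is not given by the labels. With the replicate block 33 LINC genes were higher and 49 lower. DESeq2's Wald test gave 32 and 46 and limma-voom 35 and 49. Of the 58 LINC genes under 1 CPM (by library total), 8 were higher and 11 lower, and a change that did not pass there is not shown to be absent.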
